A study of Homo sapiens with 4 samples.

Results

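The heavy polysome library of a sucrose gradient was compared with the monosome library of the same series, 2 of its 4 libraries. HEK293T, a human embryonic kidney line, was treated with cycloheximide at 100 ug/mL for 10 min, which holds elongating ribosomes in place, and the lysate was spun through sucrose from 10% to 50%. Capped, polyadenylated RNA from a free, a monosome, a light polysome and a heavy polysome pool was captured on beads carrying a mutant eIF4E and read directly as RNA on nanopores. There was 1 library per pool, all pools received the same treatment, and the sources used here do not say how many ribosomes mark the border between light and heavy polysomes. Of the 19948 protein-coding genes in the deposited table, the 7527 with 30 or more counts summed over the 4 libraries were compared. For each gene the log2 ratio of its share of the heavy polysome library to its share of the monosome library was taken, and values are given relative to the median of the 7527 genes. A negative value therefore means that an mRNA lay further toward the monosome than the median gene did.

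An mRNA is bound by more ribosomes the more often translation starts on it and the longer its coding sequence takes to read, so a short coding sequence has room for few ribosomes. Some mRNAs carry short reading frames before the main one, which can take up ribosomes before they reach it. TOP mRNAs, which encode ribosomal proteins and several translation factors, begin next to the cap with a cytosine followed by a run of pyrimidines, and their ribosome loading is known to follow mTOR activity and LARP1.

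The monosome library held 1329334 counts and the heavy polysome library 1564531, with 5175 and 8250 genes at 10 or more counts. The light polysome library had 1499401 counts and the free library 355509. The monosome library was concentrated in few genes, with 20.4% of its counts in its top 10, against 6.88% in the heavy polysome library. The median gene held a 3.34-fold larger share of the heavy polysome library than of the monosome library, a log2 shift of 1.74. Without ribosomal protein genes in the totals, the median gene lay 0.90 above equal shares on the log2 scale. Values below are relative to the median gene, so they order mRNAs along the gradient and say nothing of how much mRNA a pool held, since the sources used here do not state the RNA mass per pool. A level in such a pool also cannot tell fewer cells with an mRNA from less of it per cell. Of 16 markers of other cell types, 13 had no count in either library, and the list summed to 1 count in the monosome and 3 in the heavy polysome library. All 6 markers described in HEK293 cells were counted, with 119 and 861 counts in sum. Most of these came from VIM, with 71 and 664, and NEFL, with 33 and 147. PAX2 had only 3 and 1 and INA 1 and 4, and PAX2, INA and CDH2 were too low to test.

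With 1 library per pool there was no spread between replicates to set a difference against, and no p-value is given. A gene was called higher or lower where it lay at least 2-fold from the median gene and its 95% counting interval (Clopper-Pearson) excluded the median gene. These intervals cover counting error only. By that rule 1583 genes, 21.0% of those compared, were called higher in the heavy polysome library and 2031 genes, 27.0%, were called lower. Against equal shares of the library, the same rule gave 4878 higher and 741 lower, and with totals that leave out ribosomal protein genes it gave 3371 higher and 1263 lower. Calls began right at the fold on both sides, the nearest higher one at a log2 value of 1.00. A further 262 genes above and 162 below passed the fold with an interval that included the median gene. Exons of 2282 tested genes overlap those of another coding gene, and as the use of strand is not stated their reads could not be told apart from those of the neighbour. Among the genes whose values follow, these are FTH1, EMC6, NDUFC1, OAZ1, ARL16, EIF3L, ATF5, RPL10, SLC35A4, ATP5PB, PDIA6, TUBB4B, CCNA2, AHSA1, EIF2B1, PRDX1, HNRNPA2B1, SNRPB, PGK1 and those said to overlap where they appear. Gene lists below are described by their median and by their calls, and each share of calls can be read against the 21.0% and 27.0% of all genes.

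**Figure D1:**
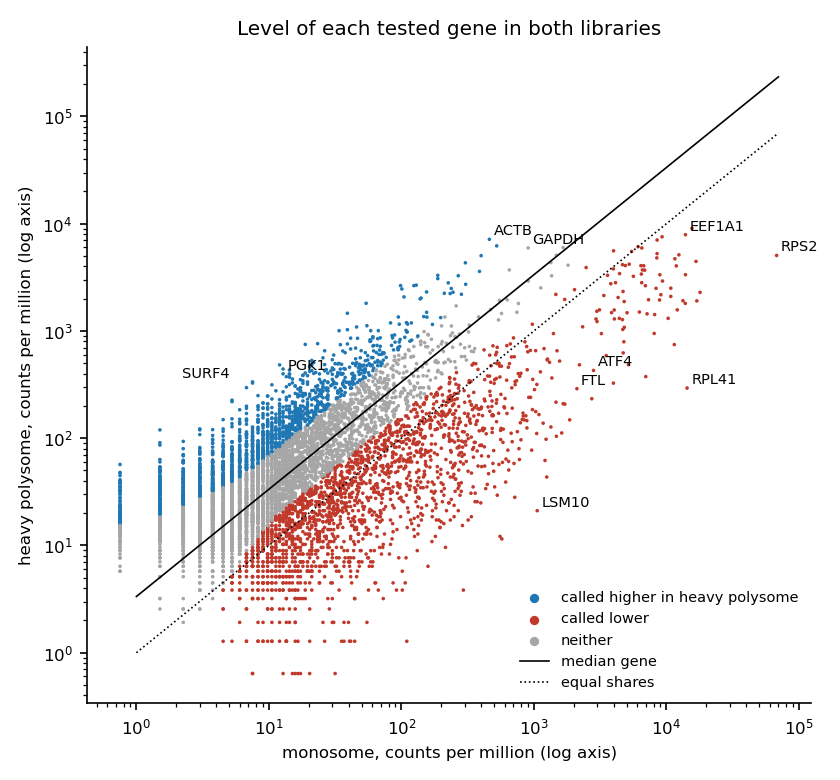
CPM, a gene's counts scaled to the library total, in the monosome library (horizontal, log axis) and in the heavy polysome library (vertical, log axis) for the tested genes with a count in both, coloured by call. The solid line marks the median gene, 3.34-fold above the dotted line of equal shares, and the cloud below it at the right holds RPS2, RPL41 and EEF1A1.

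Ribosomal protein mRNAs had the lowest medians of the 52 gene lists described here. All 30 tested small-subunit genes were called lower, with a median of -3.51, and 44 of 45 tested large-subunit genes were called lower, with a median of -3.02. Together these mRNAs were a large part of what the pools held: the small-subunit genes took 26.7% of the monosome library and 7.10% of the heavy polysome library, and the large-subunit genes 28.3% and 12.1%. The lists were chosen with earlier results of these libraries known, and 5 listed members were too low to test. Ribosomal protein genes have many retrocopies, and the sources used here do not state how reads that fit several places were counted, so single members are uncertain.

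The extreme member was RPL41 (chr12:56116586-56117943, GRCh38), a large-subunit protein with the shortest coding sequence in the list. It had 838 counts in the free library, 19019 in the monosome, 5665 in the light polysome and 459 in the heavy polysome library. It thus peaked in the monosome library and was lower with each heavier pool. Relative to the median gene it lay at -7.35 (interval -7.49 to -7.21), or 163-fold toward the monosome. Its whole coding sequence, 75 nucleotides before the stop codon, is printed here because it is so short, and the capitals mark the start codon. Whether this length sets its place in the gradient was not tested. It lies on the plus strand at chr12:56116788-56117524 across an intron, read from GENCODE release 29 on GRCh38.
RPL41: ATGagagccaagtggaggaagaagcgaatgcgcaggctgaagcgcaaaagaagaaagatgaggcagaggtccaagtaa

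Other ribosomal proteins covered a wide range. RPS27, a small-subunit protein, had 649, 9285, 4868 and 587 counts from free to heavy polysome and lay at -5.96 (-6.08 to -5.84). RPS2 (chr16:1962052-1964860), with a longer coding sequence of 879 nucleotides, had 53794, 90217, 30541 and 7910 counts and lay at -5.49 (-5.52 to -5.45). RPLP1, which is part of the stalk of the large subunit, had 31331, 22540, 8067 and 2982 counts and lay at -4.89. RPS2 and RPLP1 had their highest share in the free library, unlike RPL41 and RPS27, which peaked in the monosome library. At the other end RPS9 lay at -1.16 and RPL3, with 1209 nucleotides of coding sequence, at -1.09 (-1.15 to -1.02). RPL14 was the only tested member of either list without a call, at -0.48 (-0.55 to -0.40). RPL3 and RPL14 had their highest share in the heavy polysome library, with 6101 and 5109 counts there against 3293 and 1808 in the monosome library. Across the 75 tested ribosomal protein genes, longer coding sequences went with higher values (Spearman correlation 0.529 across genes, which are not independent replicates).

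Both lists also lay below genes of like coding length. Genes were sorted into 8 classes by coding length, and each member was set against the median of its own class. On that scale the small-subunit list still had a median of -2.29 and the large-subunit list of -1.74. RPS2, RPSA and NPM1 are TOP mRNAs of 879, 885 and 882 coding nucleotides. The first of them lay at -5.49 and the second, a small-subunit protein, at -4.71, whereas NPM1, a nucleolar chaperone, lay at 1.83.

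The annotated transcription starts of TOP mRNAs are shown here because the run of pyrimidines at the cap defines the class. PGK1, a glycolytic gene outside that class, is added for comparison. Each line gives 10 bases before and 20 after the start in RefSeq (GRCh38.p14), read along the transcribed strand, and the capitals mark a C at the start base followed without a break by at least 4 pyrimidines.
RPL41, chr12:56116623-56116652, plus strand: cttcgcctttCTCTCggccttagcgccatt
RPS27, chr1:153990752-153990781, plus strand: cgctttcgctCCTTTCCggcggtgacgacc
RPLP1, chr15:69452808-69452837, plus strand: ggcgcgagagCCCCTTTCCTCagctgccgc
RPS12, chr6:132814559-132814588, plus strand: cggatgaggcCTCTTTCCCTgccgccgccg
RPS6, chr9:19380217-19380246, minus strand: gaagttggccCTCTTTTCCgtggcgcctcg
TPT1, chr13:45341164-45341193, minus strand: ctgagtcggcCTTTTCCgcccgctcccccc
EEF1A1, chr6:73521013-73521042, minus strand: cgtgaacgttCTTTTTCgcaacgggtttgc
EEF2, chr19:3985444-3985473, minus strand: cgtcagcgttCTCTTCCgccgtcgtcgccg
RPL3, chr22:39319604-39319633, minus strand: gccgaccggcctctaccggcgggatttgat
PGK1, chrX:78104238-78104267, plus strand: cccgcgcggtgttccgcattctgcaagcct

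The last of these, RPL3 and PGK1, have no such run at the annotated base. The run at the RPL3 start is broken by an A, and a start a few bases away could not be told apart from the annotated one here. Such a run, of at least 5 pyrimidines in all, stood at the start of 4.07% of 35116 RefSeq windows and of 6.39% of the 6131 tested genes with a window. It stood at 41 of 60 ribosomal protein starts and at 9 of 10 starts of the other TOP mRNAs. Outside both lists it was found in 342 of 6061 tested genes. Those 342 genes had a median of -0.14, against 0.04 for the genes without a run outside both lists. Among the ribosomal protein genes the medians were -3.42 with a run and -2.40 without, and over all tested genes with a window -0.48 and 0.04.

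The TOP mRNAs that encode no ribosomal protein had a median nearer 0, with members on both sides of it. Of 17 tested, 13 were called lower and 1 higher, with a median of -1.49, and of -1.81 against their length classes. On that second scale they lay between the small-subunit list at -2.29 and the large-subunit list at -1.74. Their median coding length was 1221 nucleotides, against 445.5 and 471. TPT1, a small growth-related protein, had 5710, 10827, 1282 and 2222 counts from free to heavy polysome and lay at -4.26 (-4.33 to -4.19). PABPC1, the cytoplasmic poly(A)-binding protein, had 18, 983, 282 and 537 counts and lay at -2.85. EEF1A1, which brings aminoacyl-tRNA to the ribosome, had 676, 18499, 9575 and 12347 counts and lay at -2.56 (-2.59 to -2.53). TPT1, PABPC1 and EEF1A1 thus held less of the light polysome library than of either neighbour. The same was true of RACK1, NPM1 and HNRNPA1, whereas EEF2 had its largest share in the light polysome library. EEF2, the translocation factor, lay at -1.49 (-1.60 to -1.39) and RACK1, a scaffold protein on the small subunit, at -1.25 (-1.30 to -1.21). NPM1 stood apart from them, with 112, 696, 681 and 9715 counts and a value of 1.83 (1.72 to 1.94). The splicing protein HNRNPA1 lay near the median gene at 0.11.

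Other mRNAs of the translation machinery did not move as a block. Of 12 eIF4 family genes, 7 were called lower and 3 higher, with a median of -1.30. EIF4E, the cap-binding protein, had 393 counts in the monosome and 144 in the heavy polysome library and lay at -3.42 (-3.71 to -3.15). EIF4H, which aids the helicase eIF4A, had 52 and 1183 counts and lay at 2.52 (2.13 to 2.96). Of 13 eIF3 subunits, 4 were called lower and 1 higher. The 4 called lower, EIF3L at -2.27 among them, are all on the list of TOP mRNAs, while EIF3B, a core subunit, lay at 2.60 (2.07 to 3.24). None of the 8 eIF2 and eIF2B subunits, which deliver and recharge the initiator tRNA complex, was called lower and 4 were called higher, with a median of 1.41 and EIF2B1 at 2.62. Of 20 aminoacyl-tRNA synthetases, 5 were called higher and 2 lower, around a median of 0.26. NACA, a subunit of the complex that binds nascent chains, lay at -3.84 and BTF3, its partner, at -0.11; exons of NACA overlap another coding gene.

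Coding length ordered the genes at its short end. Genes of up to 300 coding nucleotides had a median of -3.49, and 93.8% of the 210 were called lower and none higher. The 1041 genes of 301 to 600 nucleotides had a median of -1.43, with 57.6% called lower. From 601 to 900 nucleotides the median was 0.01, and from 901 to 1200 it was 0.39, with 19.0% lower and 29.2% higher. Beyond 1800 nucleotides the medians came down again, to 0.23, then 0.01 and -0.10 in the class above 3600. The Spearman correlation with coding length was 0.253 over the 7464 genes with a coding length, 0.366 over the 5563 genes of up to 1800 nucleotides and -0.087 over the 1901 longer ones. Without ribosomal protein genes it was 0.236, and in genes with 100 or more counts it was 0.375. These are correlations across genes within 1 pair of libraries, with no replicate. The Spearman correlation with the mean level of the pair was 0.036.

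**Figure D2:**
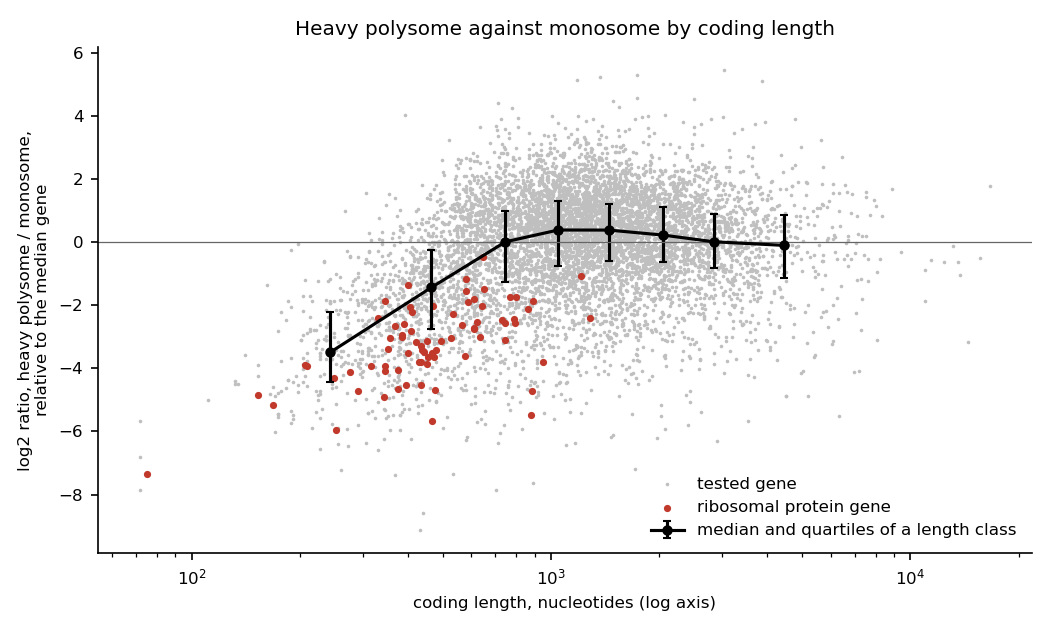
Relative log2 ratio of heavy polysome to monosome (vertical) against coding length in nucleotides (horizontal, log axis) for 7464 tested genes, with ribosomal protein genes in red and black points for the median and quartiles of 8 length classes. The medians climb from -3.49 in the shortest class to 0.39 at 901 to 1200 nucleotides and reach -0.10 in the longest.

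Complexes built of many small proteins had more calls toward the monosome than toward the heavy polysomes, and the lowest members named here are short. Of 33 complex I subunits of the respiratory chain, 17 were called lower and 3 higher, with a median of -1.26 that lay 0.06 above their own length classes. NDUFC1, a small accessory subunit, lay at -4.81, the lowest of them with 100 or more counts in the pair. Complexes III and IV had 12 of 21 lower and 2 higher, with UQCRH, the hinge protein, at -2.97 and UQCRC1, a core protein of 1440 nucleotides, at 1.87. ATP synthase had 10 of 18 lower and none higher, from ATP5MD at -4.78 to ATP5PB at 0.99. Within these 3 lists the Spearman correlation with coding length was 0.743, 0.689 and 0.883.

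Other assemblies with more calls lower than higher also held members on both sides of the median gene. Of 30 mitochondrial import genes, 20 were called lower and 4 higher, with TOMM7, a small subunit of the outer membrane pore, at -4.83 and TIMM23, the inner membrane channel, at 1.97. Of 17 Sm and LSm genes, which form rings on small nuclear and decaying RNAs, 13 were called lower. SNRPB, the longest Sm protein named here with 693 nucleotides, lay at 2.87 (2.13 to 3.84) and SNRPD1 at -2.77. Among the 14 tested members of the anaphase-promoting complex list, 6 were called lower and 2 higher. CDC26 lay at -5.90 and the scaffold subunit ANAPC5 at 3.01. RNA polymerase II and Mediator had 13 of 36 lower and 6 higher, with a median of -0.45 and -1.99 from summed counts. POLR2K, a polymerase subunit of 174 nucleotides, lay at -5.54 and MED27, a Mediator subunit of 933, at 2.04. Mitochondrial ribosomal proteins had 26 of 73 lower and 11 higher, with a median of -0.37 and -1.30 from summed counts. MRPL51 lay at -5.39 and MRPL16 at 2.80. Against their length classes, mitochondrial import had a median of -0.26 and the anaphase-promoting complex list of -0.70. On that scale Sm and LSm genes lay at 0.01, RNA polymerase II and Mediator at 0.15 and mitochondrial ribosomal proteins at 0.31. Exons of MRPL51 and CDC26 overlap a coding gene on the opposite strand.

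The lowest ratios were found by ranking the 1980 genes with 200 or more counts in the pair. The 15 lowest lay between -7.88 and -5.90. Of the 13 with a coding length, 11 had 600 nucleotides or fewer and 9 had an upstream ATG in the transcript used. Over the 1966 ranked genes with a transcript these numbers were 643 and 848. LSM10, a component of the U7 particle that processes histone mRNAs, had 76, 1407, 466 and 33 counts from free to heavy polysome and lay at -7.37 (-7.93 to -6.89). SELENOW, a small selenoprotein, had 42, 737, 197 and 19 counts and lay at -7.22 (-7.99 to -6.60). EMC6, a subunit of the membrane protein insertion complex, had 137, 1661, 718 and 68 counts and lay at -6.58 (-6.96 to -6.24). All 3 peaked in the monosome library and had their lowest share in the heavy polysome library. COMMD6 lay at -6.40 and COPS9, a short protein of the COP9 signalosome with 171 coding nucleotides, at -6.02. The lowest of all, AC087721.2 at -7.88, has exons that overlap NUSAP1 and the noncoding OIP5-AS1, so whose reads it holds could not be told apart. MAP3K13, a kinase of 2898 coding nucleotides, lay at -6.31 on 211 and 10 counts and overlaps TMEM41A on the opposite strand.

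Upstream ATGs went with lower values in genes of short to middle coding length. Counted in 1 GENCODE transcript per gene with a 5′ UTR of 30 or more nucleotides, the 3330 genes without one had a median of 0.31, with 21.4% called lower and 27.0% higher. The 1608 genes with 1 had a median of -0.06, the 801 genes with 2 of -0.34, and the 1238 genes with 3 or more of -0.44. In the last group 35.1% were called lower and 13.1% higher. Within genes of 901 to 1200 coding nucleotides the 4 medians were 0.83, 0.25, -0.18 and -0.70. In the class of 2401 to 3600 nucleotides they were 0.04, 0.00, 0.39 and -0.00, with no such order. At 5′ UTRs of 201 to 300 nucleotides the medians ran from 0.60 without an upstream ATG to -0.60 with 3 or more, and the length of the 5′ UTR itself had a Spearman correlation of 0.011. The transcript used may not be the one made in these cells: that of EEF1A1 has a 5′ UTR of 992 nucleotides with 10 upstream ATGs.

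**Figure D3:**
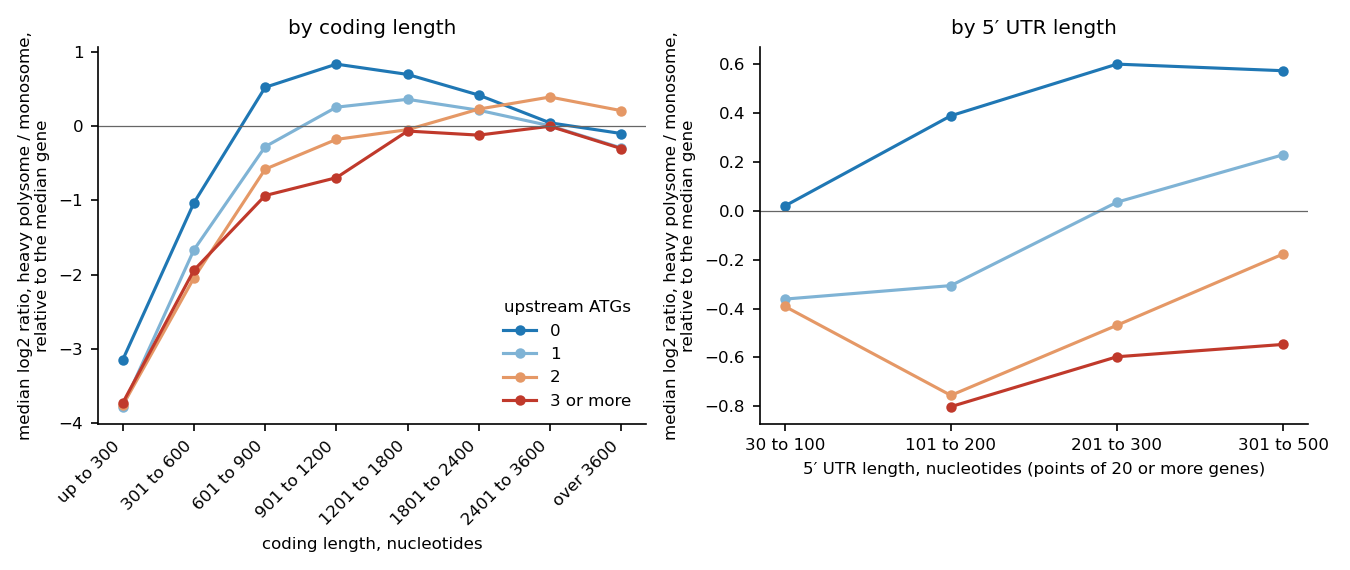
Median relative log2 ratio (vertical) by number of upstream ATGs (colour) within classes of coding length (left) and of 5′ UTR length (right), both in nucleotides. At 901 to 1200 coding nucleotides the medians run from 0.83 with none to -0.70 with 3 or more, and above 2400 nucleotides the lines cross.

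Upstream ATGs of 4 mRNAs far toward the monosome are shown, each with the bases around it on the transcript (GENCODE 29, GRCh38) and the ATG in capitals. The count above took every ATG in the 5′ UTR, whatever its frame and wherever that frame ends. Whether ribosomes use the ones shown was not tested.
LSM10, chr1:36397854-36397877, minus strand: gtcgccggcATGgtttctccgtcc
SELENOW, chr19:47778759-47778782, plus strand: cctcagcggATGtggcagccccga
EMC6, chr17:3668818-3668841, plus strand: ccgagcaagATGgcgccgcgggca
ATF4, chr22:39520639-39520662, plus strand: acggccaccATGgcgtattagggg

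The frame opened in LSM10 has 18 codons and starts 126 nucleotides before the main start codon. A second upstream ATG of LSM10, not shown, lies 34 nucleotides before it and opens a frame of 24 codons that runs past it. The frame of EMC6 has 11 codons and starts 122 nucleotides before its main start codon. In SELENOW the upstream ATG lies only 18 nucleotides before the start, in the same frame, so its 18 codons end at the in-frame TGA of this selenoprotein, which is printed with the other selenoproteins. The ATF4 frame shown has 3 codons, and 6 further upstream ATGs are present in its transcript.

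ATF4, the transcription factor of the integrated stress response and a textbook case of control by upstream frames, had 272, 3745, 4895 and 670 counts from free to heavy polysome. It was most counted in the light polysome library and lay at -4.46 (-4.58 to -4.34), or 22.0-fold toward the monosome, with a coding length of 1053 nucleotides. Genes of its length class had a median of 0.39. ATF5, a related factor, had 15, 63, 246 and 59 counts and lay at -2.07 (-2.61 to -1.53). SLC35A4, whose upstream frame is known to encode a protein of its own, had 1, 85, 614 and 140 counts and lay at -1.26 (-1.65 to -0.85). All 3 had their highest share in the light polysome library. Over the whole list of stress mRNAs with upstream frames, 5 of 13 were called lower and 2 higher, with a median of -0.65, and with -3.05 from summed counts. UCHL1, the highest member with at least 100 counts in the pair, lay at 1.85.

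The ferritin mRNAs carry an iron-responsive element near the cap, which iron regulatory proteins bind when iron is scarce. FTL had 12074, 2805, 896 and 453 counts from free to heavy polysome and lay at -4.60 (-4.75 to -4.46). FTH1 had 12416, 6343, 2240 and 1240 counts and lay at -4.33 (-4.42 to -4.24). Both were most abundant in the free library and lower with each heavier pool. TFRC, the transferrin receptor, carries its elements in the 3′ UTR and had 0, 10, 11 and 27 counts, with a value of -0.59 (-1.63 to 0.67). For TFRC the depth could not show a difference from the median gene.

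Polyamine genes had 5 of 9 tested members called lower and none higher, with a median of -1.55, and of -1.72 against their length classes. ODC1, ornithine decarboxylase, had 37, 1195, 1865 and 999 counts and lay at -2.23 (-2.36 to -2.11). OAZ1, the antizyme that needs a ribosomal frameshift, had 32, 396, 1091 and 179 counts and lay at -3.12 (-3.38 to -2.86), and OAZ2 lay at -3.15. These 3 mRNAs peaked in the light polysome library. AMD1, which makes the aminopropyl donor and has a known 6-codon upstream frame, lay at 0.33 (-0.12 to 0.84), and the antizyme inhibitor AZIN1 at 0.16 (-0.44 to 0.84), both on fewer than 300 counts in the pair.

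Selenoproteins read an in-frame TGA as selenocysteine. Of 14 tested, 7 were called lower and 2 higher, with a median of -1.07. SELENOW lay lowest. GPX1, a glutathione peroxidase, had 149, 2273, 2963 and 325 counts and lay at -4.78 (-4.95 to -4.61). GPX4, which reduces lipid peroxides, had 72, 1399, 2551 and 496 counts and lay at -3.47 (-3.62 to -3.32). TXNRD1, thioredoxin reductase, had 2, 19, 83 and 287 counts and lay at 1.91 (1.27 to 2.69). SELENOW peaked in the monosome library, GPX1 and GPX4 in the light polysome library and TXNRD1 in the heavy polysome library. The sites are shown because they differ in where they lie in the frame; capitals mark the in-frame TGA (GENCODE 29, GRCh38, coding sequence).
SELENOW, chr19:47778810-47780746, plus strand: tattgtggcgctTGAggctacaagtcc
GPX4, chr19:1105391-1105417, plus strand: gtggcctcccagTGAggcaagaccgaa
TXNRD1, chr12:104348401-104348427, plus strand: caggctggctgcTGAggttaagcccca

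In SELENOW the TGA is codon 13 of 87, in GPX4 codon 73 of 197 and in TXNRD1 codon 498 of 499. Other members, looked up after their values were seen, did not follow the order of values in these 3. In SEPHS2 the TGA is codon 60 of 448 and the value was 0.99. In SELENOK the TGA is codon 92 of 94 with -1.24, and in MSRB1 codon 95 of 116 with -1.43. SELENON, at 1.08, has 2 in-frame TGAs in the transcript used, the first at codon 127 of 590. Which of them is read as selenocysteine was not tested, so SELENON is not placed in this order. Across the 14 members the Spearman correlation with coding length was 0.797, and the median against their length classes was 0.54, so position and length could not be told apart in so small a list.

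At the other end of the comparison stood mRNAs of large cytoplasmic machines with coding sequences of middle length. Of 29 tested proteasome subunits, 20 were called higher in the heavy polysome library and none lower, with a median of 1.41 and of 1.19 against their length classes. PSMD3, a subunit of the proteasome lid, had 3, 16, 53 and 755 counts from free to heavy polysome and lay at 3.54 (2.88 to 4.40), or 11.6-fold toward the heavy polysomes. PSMB1, a core particle subunit, lay at 2.03 and PSMB5, which carries a catalytic site, at -0.47. All 8 subunits of the chaperonin CCT lay above the median gene and 7 were called higher, from CCT3 at 0.53 to CCT7 at 2.19 (1.82 to 2.60). CCT folds actin and tubulin, and the mRNAs of 2 actins and of most tubulins also lay on this side. ACTB had 125, 613, 1245 and 11187 counts and lay at 2.21 (2.10 to 2.33), and ACTG1 at 1.91. Of 9 tubulin genes, 6 were called higher and none lower, with TUBB4B at 2.44. The 2 most counted, TUBA1B at -0.58 and TUBA1C, lay below the median gene without a call. Summed over the list, tubulins held 0.148% of the monosome and 0.450% of the heavy polysome library, a smaller rise than that of the median gene.

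All 6 tested 14-3-3 genes, adaptors that bind phosphorylated proteins, were called higher, with a median of 2.00 that lay 1.98 above their length classes. YWHAB had 2, 19, 91 and 619 counts and lay at 3.01 (2.39 to 3.79). YWHAE had 24, 206, 1073 and 3613 counts and lay at 2.15 (1.95 to 2.37), and YWHAG was the least high at 1.07. Each of these 3 had a larger share in every heavier pool from the monosome on. Their coding lengths, 738, 765 and 741 nucleotides, fall in a class whose median was 0.01.

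Glycolytic mRNAs had 7 of 13 tested genes called higher and none lower, with a median of 1.16. PGK1 had 4, 17, 36 and 623 counts and lay at 3.18 (2.53 to 4.01). TPI1 had 62, 357, 2681 and 5120 counts and lay at 1.86 (1.71 to 2.03). GAPDH, with 818, 1203, 1300 and 9306 counts, lay at 0.98 (0.89 to 1.06), just short of the call. PGAM1 lay at 3.31 (2.99 to 3.68), and the nearly identical retrogene PGAM4 at 3.47 (3.09 to 3.91), so how their reads were divided is uncertain. Serine synthesis showed PSAT1 at 2.12 and PSPH, with few counts, at -1.66. In the tricarboxylic acid cycle 7 of 18 were called higher and 2 lower, from SDHB at -1.29 to IDH2 at 2.70.

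The hnRNP and SR proteins, which bind pre-mRNA and guide splicing, also lay toward the heavy polysomes, unlike the Sm and LSm proteins above. Of 41 such genes, 21 were called higher and none lower, with a median of 1.15, and of 0.76 against their length classes. For the Sm and LSm list these medians were -2.60 and 0.01, so that list lay near genes of its own coding length. HNRNPA2B1 had 30, 165, 168 and 4139 counts and lay at 2.67 (2.45 to 2.91), and U2AF2, which reads the 3′ splice site, at 3.33. Their neighbours the mRNP proteins were divided, with 5 of 22 called on each side, and their summed counts gave -1.51 against a median of 0.31. YBX1, an abundant mRNA-coating protein, had 13017, 7484, 4956 and 5050 counts and lay at -2.54 (-2.60 to -2.49). SERBP1 had 25, 250, 501 and 4812 counts and lay at 2.29, and ELAVL1, which binds AU-rich RNA, lay at 2.79. LARP1, the TOP mRNA-binding protein itself, lay at 0.54 (-0.00 to 1.17) on 30 and 174 counts.

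The lists of heat shock and endoplasmic reticulum chaperones, replication genes and mitotic cyclins and kinases had more calls toward the heavy polysomes than toward the monosome. Prefoldin, which hands unfolded actin and tubulin to CCT, went the other way, with 4 of 6 subunits called lower, none higher and a median of -1.87. Against their length classes the 6 subunits had a median of -0.43. Of 21 heat shock chaperones 10 were called higher and 2 lower; AHSA1, which activates HSP90, lay at 2.51 and HSPB1, a small heat shock protein, at -4.62. Of 12 endoplasmic reticulum chaperones 6 were called higher and 1 lower, with PDIA6 at 1.74, CALR at 1.63 and HSPA5 at -0.65. Of 29 replication genes 13 were called higher and 2 lower. FEN1, the flap endonuclease, lay at 3.44 on 4 and 191 counts, with exons that overlap other coding genes. PCNA, the sliding clamp, had 48 counts in the monosome and 1016 in the heavy polysome library and lay at 2.41 (2.01 to 2.88), while DUT, which clears dUTP, lay at -3.11. Among 18 mitotic genes 9 were called higher and 4 lower. CCNA2 lay at 2.47, and the short CKS1B and BIRC5 at -2.96 and -2.51. When the counts of the mitotic list were summed before the ratio was taken, its value changed sign to -0.41, and that of the nucleolar list from 0.74 to -0.59.

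Within several families the members lay on both sides. The mitochondrial ADP/ATP carriers SLC25A4, SLC25A5 and SLC25A6 have the same coding length of 894 nucleotides. SLC25A6 had 196, 1866, 781 and 1479 counts and lay at -2.31 (-2.41 to -2.21). SLC25A5 had 54, 280, 486 and 3511 counts and lay at 1.67. SLC25A4 had 1, 8, 65 and 288 counts and lay at 3.11 (2.20 to 4.42). The transcript used holds 4 upstream ATGs for SLC25A6 and none for the others. The small chromatin protein HMGN2, with 413, 3966, 12195 and 2386 counts, lay at -2.71, with 270 coding nucleotides, and HMGB1, with 645, at 1.64 (1.48 to 1.82). Thioredoxin, TXN, lay at -1.97 and the peroxiredoxin PRDX1 at 2.62 (2.41 to 2.86). Of 48 RAB, ARF and ARL GTPases 17 were called higher and 12 lower. RAB7A, of late endosomes, lay at 2.74, ARF1, of Golgi vesicles, at 2.10 and ARL16 at -2.81. Of 25 genes of mTORC1, AKT and S6 kinase signalling 10 were called lower and 3 higher; RHEB, the activator of mTORC1, lay at -3.47 and RRAGA, a GTPase of amino acid sensing, at 3.12.

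The 15 highest ratios among genes with 200 or more counts in the pair lay between 3.14 and 3.67. None of these genes had a coding length of 600 nucleotides or less, and 2 had an upstream ATG, against 643 and 848 of the 1966 ranked genes with a transcript. SURF4, a cargo receptor of the endoplasmic reticulum, had 4, 10, 172 and 524 counts and lay at 3.67 (2.85 to 4.80), or 12.7-fold toward the heavy polysomes. CD81, a tetraspanin of the cell surface, had 13, 25, 209 and 1171 counts and lay at 3.55 (3.00 to 4.21). Monosome counts in the group ran from 6, for PPP2R5D, to 72, for PGAM1, which made the intervals wide. Also in the group were TRIM27 at 3.54, VAT1 at 3.59 and NUDC at 3.14, the last with a coding gene on the opposite strand. LMNB2, a nuclear lamin at 3.63, shares exons with TIMM13 on the same strand, so its value is uncertain.

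Zinc finger factors made up the largest list with an excess of calls toward the monosome. Of 126 tested, 47 were called lower and 11 higher, with a median of -0.64, and of -0.80 against their length classes. From summed counts the list lay at -1.29. A further 383 listed genes were too low to test. ZNF503 lay at 1.63, ZNF703 at -0.04 and ZNF90, whose exons overlap processed pseudogenes, at -3.32. The 124 tested solute carriers had a median of 0.09, with 23 called higher and 35 lower, and -0.80 from their summed counts. Lists close to the median gene also included immediate-early and ID mRNAs (-0.13), Ran and nuclear transport (-0.02, and -0.84 from summed counts) and DEAD-box and DEAH-box helicases (0.25).

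**Figure D4:**
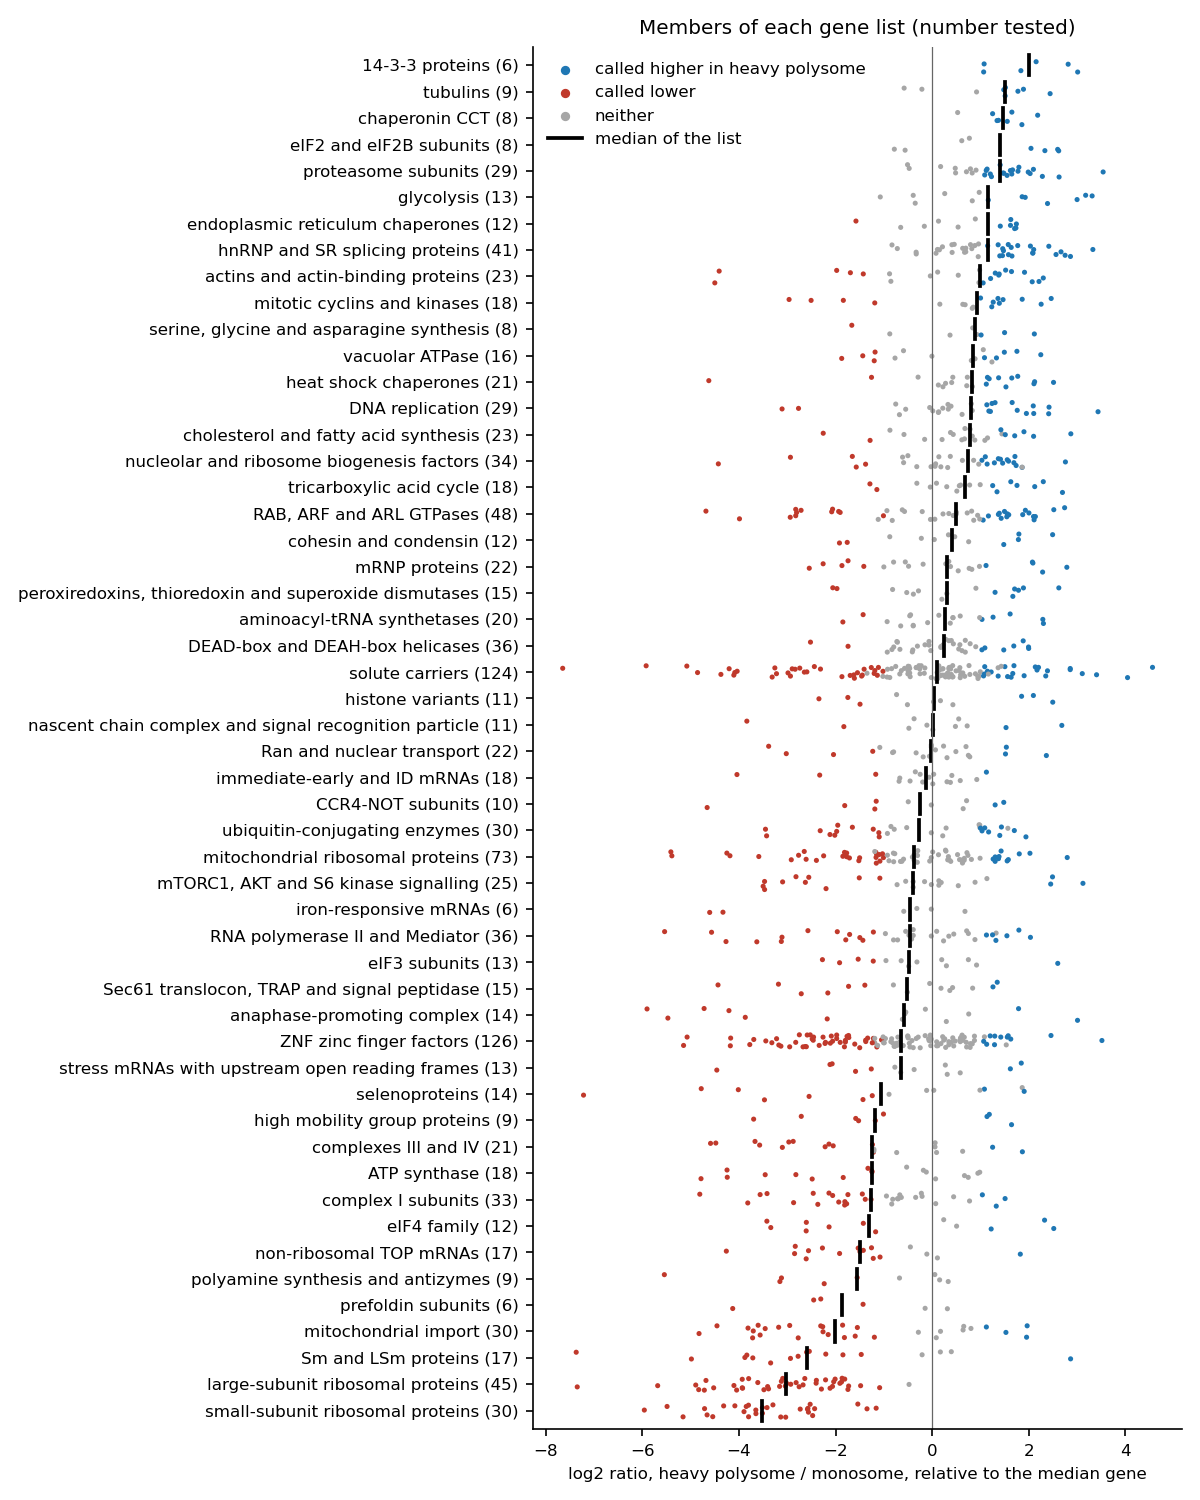
Relative log2 ratio of heavy polysome to monosome (horizontal) for every tested member of 52 gene lists, in rows ordered by their median (black bar), with calls in colour and a small random vertical offset. The ribosomal protein lists stand at the bottom with medians of -3.51 and -3.02 and the 14-3-3 list at the top with 2.00.

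The exons of some genes overlap a processed pseudogene of a ribosomal protein gene, and their values lay close to those of that gene. COMMD1, a copper and signalling adaptor, had 4245, 18454, 8343 and 2826 counts and lay at -4.68 (-4.74 to -4.63). A processed pseudogene of RPSA lies on the same strand within its exons, and RPSA itself had 3957, 23848, 10958 and 3581 counts and lay at -4.71 (-4.76 to -4.66). AC010422.3 had 2985, 11303, 9924 and 11015 counts and lay at -2.01, with exons over the pseudogene RPL10P16. RPL10 had 2294, 12319, 10811 and 11806 counts and lay at -2.04. Exons of CHCHD3, at -2.95, also overlap a processed pseudogene. The match in level and in ratio is a description; which transcripts the reads came from was not tested. These genes were singled out after their values were seen.

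The remaining libraries show where the called genes had their largest share. Of the 1583 genes called higher, 1543 (97.5%) peaked in the heavy polysome library and 40 in the light polysome library. The 2031 genes called lower were not mainly monosome mRNAs: 1191 (58.6%) peaked in the light polysome library, 560 (27.6%) in the monosome, 187 (9.21%) in the heavy polysome and 93 (4.58%) in the free library. Among the 3913 genes with neither call, 2883 (73.7%) peaked in the heavy polysome, 1025 (26.2%) in the light polysome and 0 in the monosome library. The call fixes part of this, since a gene called higher cannot peak in the monosome library. The scaling fixes more: the median gene lies 3.34-fold above equal shares, and a gene that peaks in the monosome library lies below them. HMGN2, OAZ1, GPX4 and ATF4 were of the kind that peaked in light polysomes, and RPL41, LSM10 and SELENOW of the kind that peaked in the monosome. SEC11A, a signal peptidase subunit, was called lower at -1.73 with its largest share in the heavy polysome library, at 445 and 528 counts, because its share grew less than that of the median gene. Among tested genes, 39 had no count in the monosome library and 9 none in the heavy polysome library. AP4S1, with 71 monosome counts, held at least a 27.9-fold higher share of the monosome library than of the heavy polysome library, against a floor of 3 counts. GPRIN1, with 86 heavy polysome counts, held at least a 24.4-fold higher share there. These 2 bounds are in shares of a library, not relative to the median gene, and both genes were named for being absent from 1 library.

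**Figure D5:**
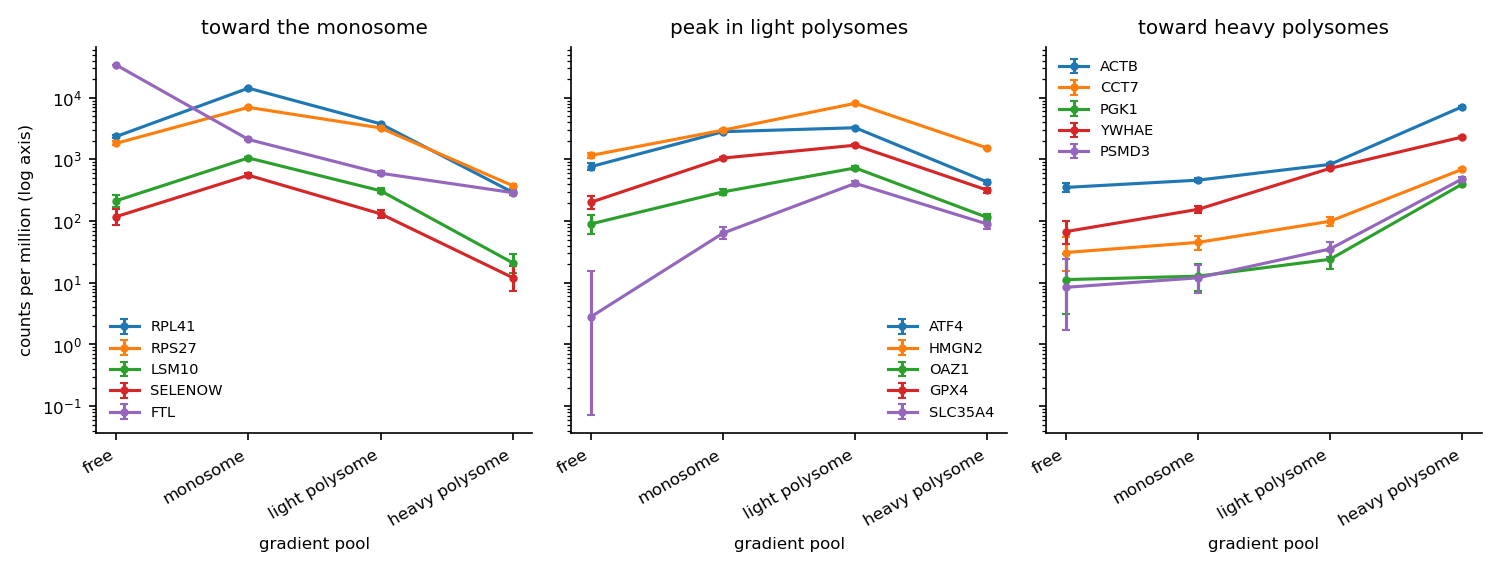
CPM (vertical, log axis) in the 4 gradient pools for 15 mRNAs, with exact Poisson 95% intervals that cover counting error only and 1 library per point. The left panel shows mRNAs called lower that peaked in the monosome or free library, the middle panel mRNAs called lower that peaked in light polysomes, and the right panel mRNAs called higher, such as ACTB and PSMD3, whose largest share was in heavy polysomes.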

How the data were processed

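Direct RNA reads from 4 gradient pools, 1 library each, were counted per gene by the authors; the deposited values are raw, unscaled whole-number counts. The submitters' processing notes name the hg38 build, minimap2 2.15 as aligner and featureCounts of Subread 1.6.2. Which annotation release was counted against, whether strand was used and how reads that fit several places or genes were treated is not stated in the sources used here. No amplification is described, so reads are RNA molecules except where alignments were counted repeatedly.

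From these counts, 0.5 was added to each value before the ratio of library shares was taken, and the median of the tested genes was subtracted. No test across replicates, with edgeR or otherwise, could be fitted on 1 library per pool. The ratio code was tested on simulated data. Counts fix the precision: 3 counts, the limit that a count of 0 allows, are a CPM of 2.26 in the monosome and 1.92 in the heavy polysome library. Coding length (without the stop codon), 5′ UTR length and upstream ATGs came from 1 transcript per gene in GENCODE release 29, for 99.2% of tested genes. Complete transcripts were preferred, then those ranked as principal isoform by APPRIS, then the longest coding sequence. Remaining ties were settled by a RefSeq match and then by transcript support level. The authors may have counted against another release. Start windows came from RefSeq and covered 6131 tested genes. Exons of 2282 tested genes overlapped those of another coding gene.

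The comparison, its members and the 52 gene lists were chosen with earlier results of these data known. The ribosomal protein lists were trimmed of paralogues once the gene names in the table were known. Genes named are the 15 highest and 15 lowest ratios among those with 200 or more counts in the pair; the 2 best counted members of each list, with its top and bottom member at 100 or more counts; the 10 most counted genes of both libraries; and a set of TOP, reference and regulated mRNAs. The text leaves some out, and a few single genes are not reported. Alternatives were other minimum counts, pseudocounts, folds and scalings, and, chosen after seeing the data, genes without overlapping coding genes and upstream ATGs at a higher minimum. Scaling alternatives used R 4.3.3 with DESeq2 1.42.0 (size factors) and edgeR 4.0.16 (TMM). Everything else ran in Python 3.11.15, on pandas 2.3.3, numpy 2.4.6 and scipy 1.17.1, with figures by matplotlib 3.10.9.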

Additional observations from a re-analysis of the deposited data

How the results depend on the processing

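No paired analysis was possible because there is 1 library per pool. For the same reason no replicate could be left out. The number of genes called higher was 2434 with no minimum count and 517 at 4-fold, where 1228 were lower. On library shares 4878 were higher and 741 lower, and with totals that leave out ribosomal protein genes 3371 and 1263. With TMM 1636 were higher and 2006 lower, and with DESeq2 size factors 1554 and 2064. The Spearman correlation with coding length was 0.375 at 100 or more counts and 0.208 in genes without an overlapping coding gene, an alternative chosen after seeing the data. The difference in median between genes without and with an upstream ATG, 0.58, was 0.71 at 100 or more counts and 0.58 without overlapping genes. The medians of all 52 lists were classed as unchanged with other minimum counts and pseudocounts. From summed counts, which weight the most abundant members, 43 were classed as unchanged and 9 as moved, all toward the monosome. Of these, nucleolar factors reached -0.59 and mitotic genes -0.41, both with a change of sign, as did mRNP proteins at -1.51 and solute carriers at -0.80. Stress mRNAs with upstream frames reached -3.05, RNA polymerase II and Mediator -1.99, mitochondrial ribosomal proteins -1.30, zinc finger factors -1.29 and Ran and nuclear transport -0.84. A list classed as unchanged could still differ widely. Iron-responsive mRNAs, with a median of -0.45, held 0.693% of the monosome and 0.124% of the heavy polysome library. Tubulins and the vacuolar ATPase, with medians of 1.51 and 0.85, were among those whose summed share rose less than that of the median gene. Of 232 named genes, 11 abundant ones moved by more than their counting error with a pseudocount of 1, without a change of sign. Depth limits genes with few monosome counts most.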
